A study of Mus musculus with 12 samples.

Results

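Nr2f1 (COUP-TFI), Nr2f2 (COUP-TFII), Nr2f6 (EAR2) and Nr6a1 (germ cell nuclear factor) are orphan nuclear receptors, and their signals were followed along the posterior neural tube of the mouse embryo. Members were taken as every probe set whose platform annotation names exactly 1 gene, that gene being 1 of these 4. The rule found 14 of the 45101 probe sets on the array, of which 1 reports Nr2f1, 6 report Nr2f2, 2 report Nr2f6 and 5 report Nr6a1. The tissue came from CD1 embryos at embryonic day 9.5, freed by 1 min in pancreatin at 2 mg/ml and cut with needles into 6 pieces, called parts 1 to 6. There was no treatment or mutation, each part had 2 arrays, and the study's description names 2 embryos as their source. The labels do not say which end of the tube part 1 is, so results are given by part number.

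The COUP-TFs (Nr2f1, Nr2f2 and the more distant Nr2f6) bind direct repeats of the sequence AGGTCA as dimers, mostly act as repressors, and can compete with retinoic acid and thyroid hormone receptors for such sites. Nr2f1 is known for area patterning in the cerebral cortex, Nr2f2 for vein identity and mesenchymal and neuronal development, and Nr2f6 for development of the locus coeruleus and for restraint of T cells. Nr6a1 binds a direct repeat of AGGTCA with no spacer, represses Pou5f1 when embryonic cells leave pluripotency, and is needed for the embryonic trunk; mouse embryos without it die at mid-gestation.

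Because Nr2f1, Nr2f2 and Nr6a1 were all higher in part 6 than in part 1, the sequences around their annotated starts are shown, 250 bases before to 50 after, from RefSeq on build GRCm38.p6. All 4 genes lie on the minus strand and all had at least 1 window. The windows printed are chr13:78198824-78199123 for Nr2f1, chr7:70366697-70366996 for Nr2f2, and chr2:38926412-38926711 and chr2:38784466-38784765 for Nr6a1, each written 5′ to 3′ on the gene's strand. Capitals mark AGGTCA or its reverse complement TGACCT.
Nr2f1, window 1: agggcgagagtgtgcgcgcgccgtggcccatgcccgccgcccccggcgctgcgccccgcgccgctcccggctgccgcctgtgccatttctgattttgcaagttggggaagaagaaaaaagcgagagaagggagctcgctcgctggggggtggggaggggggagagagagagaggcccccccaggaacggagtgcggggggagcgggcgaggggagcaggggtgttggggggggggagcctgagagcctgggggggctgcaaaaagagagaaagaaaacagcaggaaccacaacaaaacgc
Nr2f2: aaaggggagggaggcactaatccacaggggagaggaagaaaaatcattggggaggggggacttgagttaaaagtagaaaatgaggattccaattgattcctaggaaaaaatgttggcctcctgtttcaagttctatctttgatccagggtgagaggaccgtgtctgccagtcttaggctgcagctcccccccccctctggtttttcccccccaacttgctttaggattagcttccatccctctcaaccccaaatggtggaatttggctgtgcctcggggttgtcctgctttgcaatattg
Nr6a1, window 1: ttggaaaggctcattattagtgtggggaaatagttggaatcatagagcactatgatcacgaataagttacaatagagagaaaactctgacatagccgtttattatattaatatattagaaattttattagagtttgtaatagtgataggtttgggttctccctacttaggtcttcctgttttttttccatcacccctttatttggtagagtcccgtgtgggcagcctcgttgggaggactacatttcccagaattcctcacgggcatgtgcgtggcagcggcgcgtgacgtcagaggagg
Nr6a1, window 2: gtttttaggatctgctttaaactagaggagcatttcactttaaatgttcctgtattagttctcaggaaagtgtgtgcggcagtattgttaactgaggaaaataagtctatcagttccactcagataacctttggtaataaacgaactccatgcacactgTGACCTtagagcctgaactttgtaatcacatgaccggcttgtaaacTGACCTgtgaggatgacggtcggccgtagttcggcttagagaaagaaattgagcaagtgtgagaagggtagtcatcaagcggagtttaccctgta
The Nr6a1 window 2 held 2 matches to AGGTCA, both on the reverse strand and separated by other bases, and the other windows of the 4 genes held none. Over all 32817 windows of 300 bases, 16.3% held AGGTCA on either strand. The direct repeat AGGTCAAGGTCA, the spacing that Nr6a1 binds, was in 0.00609% of windows and in none of the members' windows. GC content was 68% in Nr2f1 window 1, 49.7% in the Nr2f2 window and 42.3% in both Nr6a1 windows, against a median of 52.7% over all windows. The Nr2f6 window, which is not printed, had a GC content of 82.7%, above that of 99.6% of windows, and held 7 matches to the GC box GGGCGG, which was in 35.6% of windows. A match is a run of letters and not a measured binding site, and no binding was measured here.

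Signals are the authors' linear MAS5 intensities, scaled so that the trimmed mean is 100 on every array. Array medians ran between 16.7 and 19.1, and a signal is called above the median when it exceeds that of its own array. The files hold no detection calls, so low signals have no stated background limit, and the number of arrays limits the precision. Tests used limma on log2(signal + 4.43), which understates changes of dim probe sets, and covered the 21679 probe sets that exceeded the array median on at least 2 arrays. Of the 14 member probe sets, 11 passed this filter: 1 for Nr2f1, 5 for Nr2f2, 2 for Nr2f6 and 3 for Nr6a1. The slope is the change in log2 signal per part from part 1 to part 6, fitted over 12 arrays, and a call is a Benjamini-Hochberg adjusted p below 0.05 over all 21679. Nothing in the labels says which pieces shared an embryo. For differences between parts the error is the spread between the 2 arrays of a part, pooled over all 6 parts. For the slope the error also holds the departure of the parts from a straight line. limma draws both toward the spread of other probe sets.

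By the slope, 8 of the 11 member probe sets tested rose from part 1 to part 6 and 0 fell, where 4.07% of all probe sets tested rose and 4.86% fell (8.93% in all). The 8 were 2 probe sets of Nr6a1, all 5 tested for Nr2f2 and the 1 of Nr2f1. In whole pieces of tissue, a larger share of cells that express a gene and more RNA per cell cannot be told apart. The median slope of the 11 was 0.47 per part on the log2 scale, against -0.0018 over all probe sets tested. The test for any difference among the parts called the same number, 8 of 11, with 3.22% of all probe sets called. Part 6 against part 1 also gave 8 of 11 higher and 0 lower, with 3.12% of all probe sets called higher, 3.19% lower and 6.31% in either direction. Both part 6 arrays lay above both part 1 arrays in 10 of the 11, and below them in 0 of 11, where 21.6% of all probe sets lay above and 23.2% below. Of the 8, Nr2f1 and the Nr2f2 probe sets 1416158_at and 1416160_at exceeded the array median on at most 1 array of parts 1 to 5. They passed the filter through part 6 and so had to differ, and the counts and the median over the 11 are a description only.

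**Figure D1:**
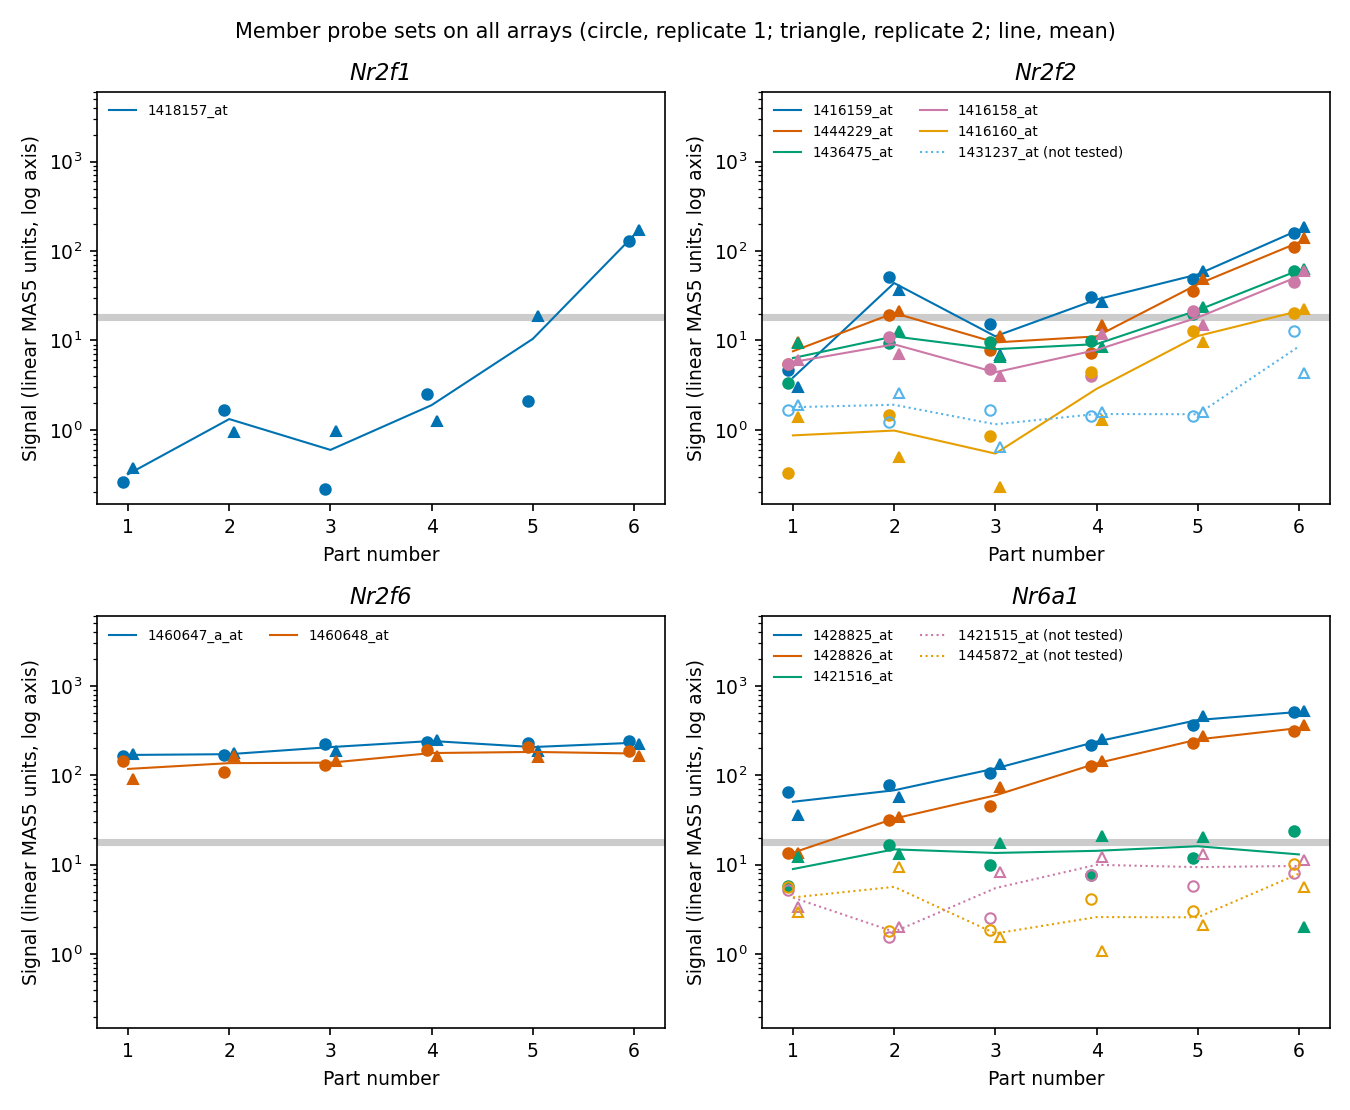
MAS5 signal (log axis) against part number for the 14 member probe sets of Nr2f1, Nr2f2, Nr2f6 and Nr6a1, 1 panel per gene. Circles are replicate 1, triangles replicate 2, lines join the part means, the grey band is the range of array medians (16.7 to 19.1), and open markers with dotted lines are probe sets that were not tested. The 2 bright Nr6a1 probe sets climb at every step, Nr2f2 has a hump in part 2, Nr2f1 stays below the band until part 5, and Nr2f6 is nearly level.

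Nr6a1 rose across the whole series of parts. Its probe set 1428825_at read 65.1 and 36.0 in part 1, 78.6 and 57.3 in part 2, 104.7 and 133.6 in part 3, 220.6 and 254.8 in part 4, 368.3 and 461.4 in part 5, and 504.9 and 518 in part 6 (replicates 1 and 2). From part 3 on, the 2 arrays of each part lay above both arrays of the part before, and parts 1 and 2 overlapped. The mean was 511.4 ± 9.26 in part 6 and 50.5 ± 20.5 in part 1 (SD, n = 2 each), and the slope was 0.71 ± 0.047 (SE; limma adjusted p = 1.43e-06). The second bright probe set, 1428826_at, read 13.6 and 13.7 in part 1, 31.3 and 34.2 in part 2, 45.0 and 74.3 in part 3, 128 and 143.6 in part 4, 230.3 and 272.6 in part 5, and 312.1 and 362.5 in part 6. No 2 neighbouring parts overlapped. Its mean was 337.3 ± 35.6 in part 6 and 13.6 ± 0.034 in part 1 (SD, n = 2 each), a difference of 4.24 ± 0.23 on the log2 scale (SE; limma adjusted p = 2.03e-05). Its slope of 0.88 ± 0.042 (limma adjusted p = 8.47e-08) ranked 5 of 21679 by p-value, and that of 1428825_at ranked 16.

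The steps between neighbouring parts were each too small to pass for Nr6a1. For 1428826_at the step from part 1 to part 2 was 1.04 ± 0.23 (limma adjusted p = 0.187) and that from part 3 to part 4 was 1.17 ± 0.23 (limma adjusted p = 0.489). Parts 6 and 5 differed by less than earlier neighbours, 0.42 for 1428826_at and 0.31 for 1428825_at on the log2 scale, and neither passed. Both slopes kept their call in each alternative that tested them, including those that left out any 1 array, both arrays of part 1, 2 or 6, or parts 1 and 2 together. The settings without part 2 and without parts 1 and 2 were chosen after seeing the data.

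The other 3 Nr6a1 probe sets did not show this course. Probe set 1421516_at, designed on the record U09563, read 24.1 and 2.0 in part 6, against 5.8 and 12.1 in part 1, and its slope was 0.01 ± 0.097 (limma adjusted p = 0.959). The 2 arrays of part 6 were the highest and the lowest of all 12. Probe sets 1421515_at, also from U09563, and 1445872_at, from AV264175, never exceeded the array median and ranged over 1.56 to 13.0 and 1.08 to 10.2. Both rising probe sets were designed on the record AK007201. The labelling used 2 rounds of amplification, which shortens the product toward the 3′ end of a transcript. The positions of the probes were not analysed here, so transcript ends or forms that the probe sets report cannot be told apart.

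Nr2f2 rose as well, in all 5 probe sets tested, with most of the gain in parts 5 and 6. The brightest, 1416159_at, read 4.66 and 3.02 in part 1, 51.3 and 36.4 in part 2, 15.4 and 6.82 in part 3, 30.7 and 26.7 in part 4, 49.0 and 60.5 in part 5, and 160.5 and 184.4 in part 6. Part 2 stood above parts 1, 3 and 4 on both arrays, and part 6 stood above all others. The mean was 172.5 ± 16.9 in part 6 and 3.84 ± 1.16 in part 1 (SD, n = 2 each), a log2 difference of 4.42 ± 0.28 (SE; limma adjusted p = 4.18e-05). The slope was 0.69 ± 0.13 (limma adjusted p = 0.00526). With part 1 left out the slope was 0.58 ± 0.19 (limma adjusted p = 0.128), and with part 6 left out it was 0.52 ± 0.17 (limma adjusted p = 0.129). With parts 3 to 6 alone, a setting chosen after seeing the data, it was 1.15 (limma adjusted p = 0.000679).

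The step of 1416159_at from part 1 to part 2 was the single step called for any member: 2.54 ± 0.28 higher in part 2 than in part 1 (limma adjusted p = 0.0166), where 0.134% of all probe sets were called. Without either part 2 array or without replicate 2 of part 1 it missed, at differences of 2.31 to 2.76 and limma adjusted p between 0.0657 and 0.0894. Part 3 was 1.67 ± 0.28 below part 2 (limma adjusted p = 0.134), which did not pass, and which passed with the filter at the 75th percentile (limma adjusted p = 0.0458). The hump was smaller in the other probe sets. Probe set 1444229_at read 19.1 and 21.4 in part 2, against 5.50 and 9.64 in part 1, a difference of 1.06 ± 0.29 (limma adjusted p = 0.287), and 7.91 and 11.1 in part 3. In 1436475_at the readings were 9.29 and 12.9 in part 2, and 3.38 and 9.34 in part 1. Probe set 1416158_at read 11.0 and 7.09 in part 2, against 5.49 and 5.98 in part 1, and 1416160_at read 1.47 and 0.494 in part 2, against 0.331 and 1.41 in part 1. Parts 2 and 1 thus did not overlap in 1444229_at and 1416158_at and overlapped in 1436475_at and 1416160_at. The share of all probe sets whose part 2 and part 1 arrays did not overlap was not counted, so this is a description only. A further probe set, 1431237_at, never exceeded the array median, with signals from 0.644 to 12.9.

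The rise to part 6 was shared by all 5 probe sets of Nr2f2 that were tested. Probe set 1444229_at read 111.4 and 138.6 in part 6, against 5.50 and 9.64 in part 1, with a slope of 0.57 ± 0.12 (limma adjusted p = 0.00910). Probe set 1436475_at read 59.1 and 63.0 in part 6, against 3.38 and 9.34 in part 1, and its slope was 0.45 ± 0.086. Probe set 1416158_at read 44.5 and 60.0 in part 6, against 5.49 and 5.98 in part 1, and its slope was 0.43 ± 0.098. Probe set 1416160_at read 20.2 and 22.5 in part 6, against 0.331 and 1.41 in part 1, and exceeded the array median in part 6 alone. In each of the 5, which report 1 gene, the part 6 arrays lay above all 10 others. The share of all probe sets with both part 6 arrays highest was not counted, so this is a description only. Without both part 6 arrays the slope stayed called for 1416160_at (limma adjusted p = 0.0439) and missed for the other 4 Nr2f2 probe sets, at slopes of 0.21 to 0.52 and limma adjusted p of 0.124 to 0.291. Probe sets 1416158_at and 1416160_at passed the filter through part 6, so their calls are a description only. The filter stayed set on all 12 arrays, and on parts 1 to 5 alone it would have dropped both, so the call of 1416160_at without part 6 shows no stability. For 1416158_at the slope also missed without replicate 1 or 2 of part 6 (limma adjusted p = 0.0581 and 0.0597), and its F test without replicate 2 of part 6 (limma adjusted p = 0.0719). For 1444229_at the slope missed without part 1 (0.65, limma adjusted p = 0.0575). Across the 12 arrays the 5 correlated with each other at Pearson r of 0.83 to 0.96, which describes probe sets for 1 gene on the same arrays.

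Nr2f1 was high in part 6 and low elsewhere. Its probe set, 1418157_at, read 0.261 and 0.378 in part 1, 1.68 and 0.959 in part 2, 0.217 and 0.978 in part 3, 2.53 and 1.25 in part 4, 2.10 and 18.7 in part 5, and 130.2 and 170.5 in part 6. Signals exceeded the array median on both part 6 arrays and on replicate 2 of part 5, and on no array of parts 1 to 4. The mean was 150.4 ± 28.5 in part 6 and 0.320 ± 0.083 in part 1 (SD, n = 2 each). This probe set passed the filter through part 6 and so had to differ, and the adjusted p-values given for it are a description only. The difference was 5.01 ± 0.47 on the log2 scale (limma adjusted p = 0.000346). Its size depends on the offset, at 6.83 with an offset of 1 and 3.21 with an offset equal to the median signal, since the part 1 signals are near 0. Part 6 was 3.64 ± 0.47 above part 5 (limma adjusted p = 0.136), which did not pass with the uneven part 5 arrays included and was 4.56 (limma adjusted p = 0.00156) without replicate 2 of part 5. The slope was 0.82 ± 0.19 (limma adjusted p = 0.0139), and it missed without replicate 1 or 2 of part 6, at limma adjusted p of 0.0571 and 0.0538. Without both part 6 arrays the slope was 0.29 (limma adjusted p = 0.187).

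Nr2f6 was present in every part, and its difference along the parts did not pass. Probe set 1460647_a_at read 165.8 and 171.8 in part 1, 168.9 and 175.4 in part 2, 225.6 and 187.7 in part 3, 235.7 and 247.8 in part 4, 227.6 and 186.0 in part 5, and 239.8 and 222.3 in part 6. Both probe sets exceeded the array median on all 12 arrays, and in each the part 6 arrays lay above those of part 1. The mean of 1460647_a_at was 231 ± 12.4 in part 6 and 168.8 ± 4.28 in part 1 (SD, n = 2 each), and its slope was 0.091 ± 0.030 (limma adjusted p = 0.0782). Probe set 1460648_at averaged 175.2 ± 16.9 in part 6 and 117.8 ± 38.6 in part 1, with a slope of 0.13 ± 0.041 (limma adjusted p = 0.0709). Part 6 exceeded part 1 by 0.44 ± 0.17 and 0.59 ± 0.28 on the log2 scale (limma adjusted p = 0.193 and 0.276). With the filter raised to the 75th percentile both slopes passed, at limma adjusted p of 0.0449 and 0.0445 with the slopes unchanged. Without replicate 2 of part 2 the slope of 1460648_at was 0.15 (limma adjusted p = 0.0482).

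**Figure D2:**
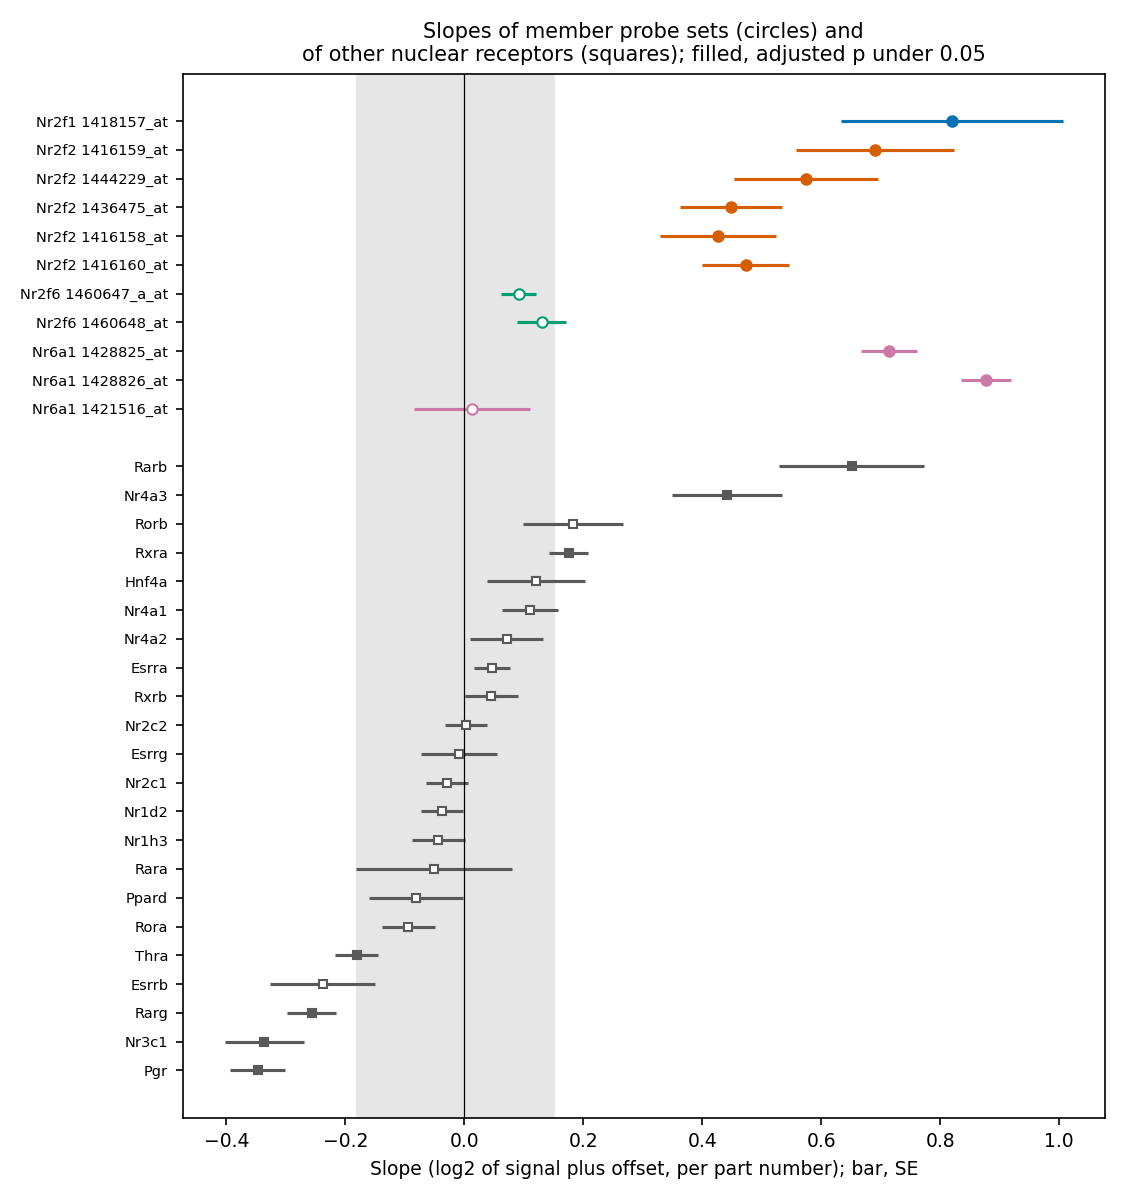
Slope per part (log2 scale, bars are SE) of the member probe sets (circles) and of the brightest tested probe set of each other nuclear receptor (squares), filled where the adjusted p is below 0.05. The grey band holds the 5th to 95th percentile of all probe sets tested. The 8 called member probe sets lie above the band, while both Nr2f6 probe sets and 1421516_at lie inside it.

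The genes differed in where along the parts the change fell. Of the log2 difference between part 6 and part 1, Nr6a1 had reached 24.6% by part 2, 42.2% by part 3, 69.7% by part 4 and 90.1% by part 5 in probe set 1428826_at. Its probe set 1428825_at had reached 90.6% by part 5. Nr2f1 had reached 8.1% by part 4 and 27.4% by part 5. Taken alone, replicates 1 and 2 of part 5 stood at 9.1% and 45.6% for Nr2f1, so its mean there covers 2 very uneven arrays. The 5 tested probe sets of Nr2f2 had reached 7.9% to 45.4% by part 4 and 45.9% to 68.3% by part 5, with single part 5 arrays between 37.6% and 74.4%. At part 2 its probe set 1416159_at stood at 57.3% and at part 3 at 19.5%. These shares are a description, and no test of their difference between genes was made.

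**Figure D3:**
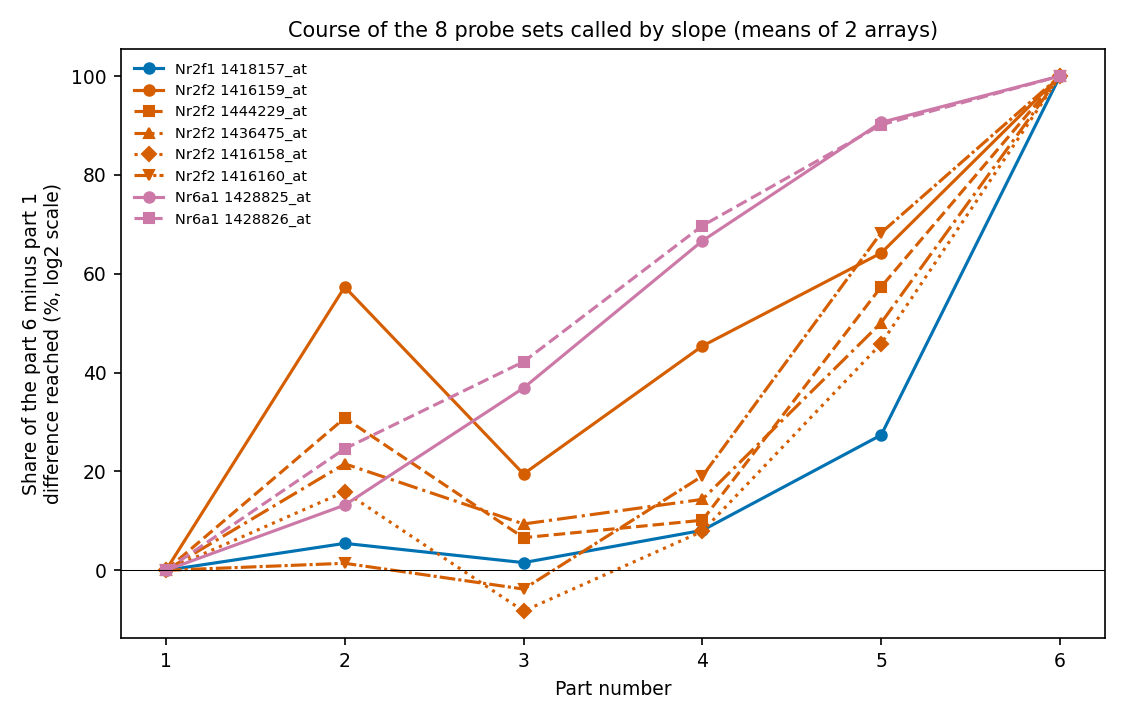
Share of the log2 difference between part 6 and part 1 that was reached at each part (percent, from 0 at part 1 to 100 at part 6), 1 line per called member probe set. The Nr6a1 lines climb at every part and stand at 90.1% and 90.6% at part 5, the Nr2f1 line stands at 27.4% there (9.1% and 45.6% on the single arrays), and 1416159_at of Nr2f2 has a local peak of 57.3% at part 2.

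Between neighbouring parts the members gave few calls. No member was called from part 2 to part 3, from part 3 to part 4, from part 4 to part 5 or from part 5 to part 6, where limma called 0.0738%, 0%, 0.00461% and 0.00461% of all probe sets. At an unadjusted p below 0.05, 4, 3, 7 and 6 of the 11 member probe sets passed in those 4 steps, and 944, 672, 734 and 807 of all 21679. The 6 from part 5 to part 6 include Nr2f1 1418157_at and Nr2f2 1416158_at and 1416160_at, which passed the filter through part 6. These counts are a description only.

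The direction from part 1 to part 6 was the same in both replicates for 10 of the 11 tested member probe sets. The share of all probe sets that were higher in part 6 within a replicate was not counted. Some members passed the filter through part 6, so the counts by replicate are a description only. Part 6 was higher than part 1 in 10 of the 11 tested member probe sets within replicate 2, the exception being 1421516_at, and in 11 of 11 within replicate 1. For Nr6a1 1428825_at part 6 exceeded part 1 by 3.69 in replicate 2 and by 2.87 in replicate 1 on the log2 scale. For Nr2f1 the same differences were 5.19 and 4.84, and for Nr2f2 1416159_at they were 4.66 and 4.18. A difference between the slopes of replicates 2 and 1 was called by limma for 0 of the 11 and for 0 of all 21679 probe sets (0%). At an unadjusted p below 0.05 it passed for 0 of the 11 and for 1293 of all. The levels of replicate 2 against replicate 1 were called for 0 of 11 members, where 3.72% of all probe sets were called (2.34% higher and 1.37% lower). Probe set 1444229_at of Nr2f2 came nearest, 0.40 ± 0.10 higher in replicate 2 (limma adjusted p = 0.0741).

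For each gene with a called slope, the 5 genes whose log2 signals correlated best with its brightest tested probe set over the 12 arrays were listed. For Nr6a1 these were Ccdc160 (Pearson r = 0.992), Ptprz1 (0.991), Scube2 (0.988), Nrcam and Srgap3 (0.979 each). Ptprz1 is a receptor phosphatase of neural progenitors, and Nrcam is a neural cell adhesion molecule. For Nr2f2 they were Ret (0.919), a receptor for glial cell line-derived factors, the interneuron progenitor factor Dbx1 (0.913), Igfbp5 (0.895), the RNA-binding Qk (0.893) and Lonrf1 (0.891). For Nr2f1 they were Plcd4 (0.968), Prdm8 (0.944), the neural POU factor Pou3f3 (0.923), the RNA-binding Celf2 (0.918) and the motor neuron progenitor factor Olig2 (0.905). Genes were taken from the highest correlations among all probe sets on the same 12 arrays, so the values describe likeness and carry no test.

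Other nuclear receptors moved in both directions. Of 45 listed, 40 were on the array and 22 were tested, and 3 rose, 4 fell and 15 did not pass, with a median slope of -0.019. Those that rose were the retinoic acid receptor Rarb, with a mean signal of 100.9 in part 6 and 7.23 in part 1 and a slope of 0.65 ± 0.12 (limma adjusted p = 0.00432), the immediate early gene Nr4a3 at 0.44 ± 0.093 and the heterodimer partner Rxra at 0.18 ± 0.033. Those that fell were the progesterone receptor Pgr at -0.35 ± 0.046, the glucocorticoid receptor Nr3c1 at -0.34 ± 0.067, the retinoic acid receptor Rarg at -0.26 ± 0.041 and the thyroid hormone receptor Thra at -0.18 ± 0.036. A second, dimmer probe set of Rxra had a slope of 0.03 (limma adjusted p = 0.776). With part 6 left out, the calls of 4 were lost, at slopes of 0.45 for Rarb (limma adjusted p = 0.124), 0.23 for Nr4a3 (0.138), -0.20 for Rarg (0.0521) and -0.15 for Thra (0.121). With part 1 left out the slope of Rxra was 0.12 (limma adjusted p = 0.0970).

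Of 19 listed partners and coregulators of the COUP-TFs, 16 were tested, and 1 rose, 4 fell and 11 did not pass (median slope 0.011). The acetyltransferase Kat2b rose by 0.18 ± 0.037 per part (limma adjusted p = 0.00755). Bcl11a and Bcl11b, zinc finger proteins first described as COUP-TF interacting proteins, had slopes of -0.45 ± 0.078 (limma adjusted p = 0.00234) and -0.37 ± 0.082 (limma adjusted p = 0.0131). The mean signal of Bcl11a was 2.69 in part 6 and 33.3 in part 1. With parts 3 to 6 alone, a setting chosen after seeing the data, its slope was -0.23 (limma adjusted p = 0.637). Sqstm1 (-0.16 ± 0.031), the adaptor of selective autophagy, and the GATA cofactor Zfpm1 (-0.33 ± 0.093) also fell. The calls for Bcl11b and Zfpm1 were lost when single arrays were left out, at limma adjusted p of up to 0.0507 and 0.149. That for Bcl11a was lost with part 1 left out (slope -0.37, limma adjusted p = 0.0671) and that for Kat2b with part 6 left out (slope 0.18, limma adjusted p = 0.0724).

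Genes of retinoic acid supply and response, a signal whose receptors share DNA elements with the COUP-TFs, were tested for 11 of 16 listed, and 4 rose, 1 fell and 6 did not pass (median slope 0.086). Aldh1a2, the main enzyme of retinoic acid synthesis in the embryo, averaged 599.7 ± 18.2 in part 6 and 17.9 ± 3.26 in part 1 (SD, n = 2 each) and rose by 0.91 ± 0.098 per part (limma adjusted p = 6.81e-05). Cyp26a1, which breaks retinoic acid down, fell, with a slope of -1.49 ± 0.13 (limma adjusted p = 1.50e-05). The corepressor Nrip1 (0.26 ± 0.053), the retinol dehydrogenase Rdh10 (0.12 ± 0.032) and the binding protein Crabp2 (0.16 ± 0.046) rose. The calls for Rdh10 and Crabp2 were lost when single arrays were left out, at limma adjusted p of up to 0.0777 and 0.146. That for Nrip1 was lost with part 1 left out (slope 0.22, limma adjusted p = 0.0926) or part 6 left out (slope 0.18, limma adjusted p = 0.162).

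Of 11 pluripotency and oocyte genes linked to Nr6a1, 5 were tested, and 1 rose, 0 fell and 4 did not pass (median slope -0.089). The 1 was Sox2, a factor of neural progenitors and pluripotent cells, with a slope of 0.44 ± 0.10 (limma adjusted p = 0.0130). It missed without replicate 2 of part 1 (limma adjusted p = 0.0532), and with part 1 left out its slope was 0.16 (limma adjusted p = 0.142). Pou5f1, the gene that Nr6a1 is known to repress, had a slope of -0.26 ± 0.082 (limma adjusted p = 0.0638), which did not pass. Dnmt3b, a DNA methyltransferase of early embryonic cells, had -0.089 ± 0.032 (limma adjusted p = 0.115).

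Of 13 genes around Lin28, let-7 and the trunk to tail switch, 10 were tested, and 3 rose, 1 fell and 6 did not pass (median slope 0.039). The 3 were Mycn (0.24 ± 0.041, limma adjusted p = 0.00248), Trim71 (0.23 ± 0.053, limma adjusted p = 0.0152) and Igf2bp3 (0.15 ± 0.039, limma adjusted p = 0.0283). Arid3b fell at -0.26 ± 0.066 (limma adjusted p = 0.0233). Lin28a, which blocks let-7 maturation, had a slope of -0.056 (limma adjusted p = 0.295). The calls for Trim71, Igf2bp3 and Arid3b were lost when single arrays were left out, at limma adjusted p of up to 0.0649, 0.0719 and 0.0908.

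The label neural tube was set against marker genes. Of 16 neural progenitor genes, 15 were tested and 14 rose, and their summed signal was 9633 to 10326 in part 6, 1793 to 2121 in part 2 and 938 to 1005 in part 1. In part 6, 15 of the 16 exceeded the array median on both arrays, and in part 1 it was 7. Presomitic mesoderm genes summed to 1009 to 1054 in part 6 and to 4036 to 5618 in part 1, with 1 of 9 tested higher and 4 lower. Surface ectoderm genes, 6 of 9 tested lower, summed to 175 to 191 in part 6 and to 487 to 1325 in part 1. Notochord and floor plate genes gave 2 of 4 tested higher and 0 lower, gut genes 1 of 4 higher and 2 lower, and blood genes 0 of 7 in either direction. Blood genes were very uneven between replicates 1 and 2, at sums of 59.5 and 10070 in part 1 and of 94.8 and 6324 in part 6. The lack of calls for them thus does not show that blood was absent or equal along the parts. Part 1 thus had less signal of neural progenitor genes and more of presomitic and surface ectoderm genes than part 6. These move with the members' slopes, and their part in the result was not tested.

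Nr2f2 is also expressed in veins and mesenchyme, so those markers were set beside it. In part 6 the summed signal of 12 endothelial genes was 325.7 to 329.7, the lowest of the 6 parts, and in part 1 it was 833.7 to 2976. Of the 12, 2 to 4 exceeded the array median on both arrays in each part, and in part 6 these were Nrp2, a neuropilin of veins and neural tissue (207.8 and 192.3), and the venous receptor Ephb4 (43.5 and 41.6). Nrp2 had a slope of 0.24 (limma adjusted p = 0.120). Pecam1 and Cdh5, adhesion proteins that define endothelium, were below the array median on all 12 arrays, at 5.41 and 5.90 for Pecam1 and 4.21 and 9.26 for Cdh5 in part 6. Lateral plate and limb mesenchyme genes (10 genes) summed to 92.6 to 101.1 in part 6 and to 92.2 to 170.2 in part 1. Of these, 1 exceeded the array median on both arrays in part 6 and 1 in part 1, and Prrx1 read 2.27 and 3.60 in part 6. Of the 6 endothelial and 5 lateral plate genes tested, 0 rose, with 1 endothelial gene lower. At the hump of Nr2f2 in part 2, endothelial genes summed to 385.2 to 1802, against 833.7 to 2976 in part 1, and somite genes to 119.5 to 645.5, against 148 to 219.5 in part 1. Presomitic mesoderm genes summed to 4036 to 5618 in part 1, 2255 to 4282 in part 2 and 812 to 821 in part 3. Nr2f2 1416159_at was higher in part 2 than in part 1 and lower in part 3 than in part 2.

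The 2 arrays of part 2 were uneven in several marker lists. Replicate 1 of part 2 read 184.7 for Foxc2 and 109.5 for Meox1, somite genes, and 503.6 for Shh of notochord and floor plate, and replicate 2 read 1.15, 2.82 and 25.3. Surface ectoderm genes (557.8 and 956.3), gut genes (1037 and 1737) and neural crest genes (244.5 and 470.6) were higher in replicate 2. Nr2f2 1416159_at read 51.3 and 36.4 on the same arrays. The part of these markers in the Nr2f2 hump was not tested. Without both part 2 arrays its slope was 0.87 (limma adjusted p = 0.000106), a setting chosen after seeing the data. All 8 member probe sets called by the slope stayed called without part 2. Over all probe sets, the slope called 1521 in that setting and 1936 with every array. Of the 8, Nr2f1 1418157_at and Nr2f2 1416158_at and 1416160_at passed the filter through the last part, which that setting keeps. Their calls without part 2 are thus a description only and show no stability.

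Motor neuron and ventral interneuron genes (14 on the array) summed to 1171 to 1196 in part 6 and to 789 to 856 in part 1. In part 3 they summed to 627 to 648 and in part 4 to 683 to 704, below part 1. The list holds Aldh1a2, whose gain from part 1 to part 6, given above, was larger than that of the sum. The other genes of the list together thus did not rise from part 1 to part 6. Of the 8 tested, 3 rose, 2 fell and 3 did not pass. Olig2, of motor neuron progenitors, read 65.6 and 108.4 in part 6, against 0.316 and 1.70 in part 1, and Isl1, of newborn motor neurons, read 7.28 and 10.7 in part 6, against 5.31 and 3.04 in part 1, below the median throughout. Neural crest genes, 2 of 10 tested higher and 0 lower, summed to 685 to 827 in part 6 and to 322 to 478 in part 1. The share of these cells in the members' signals was not tested.

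**Figure D4:**
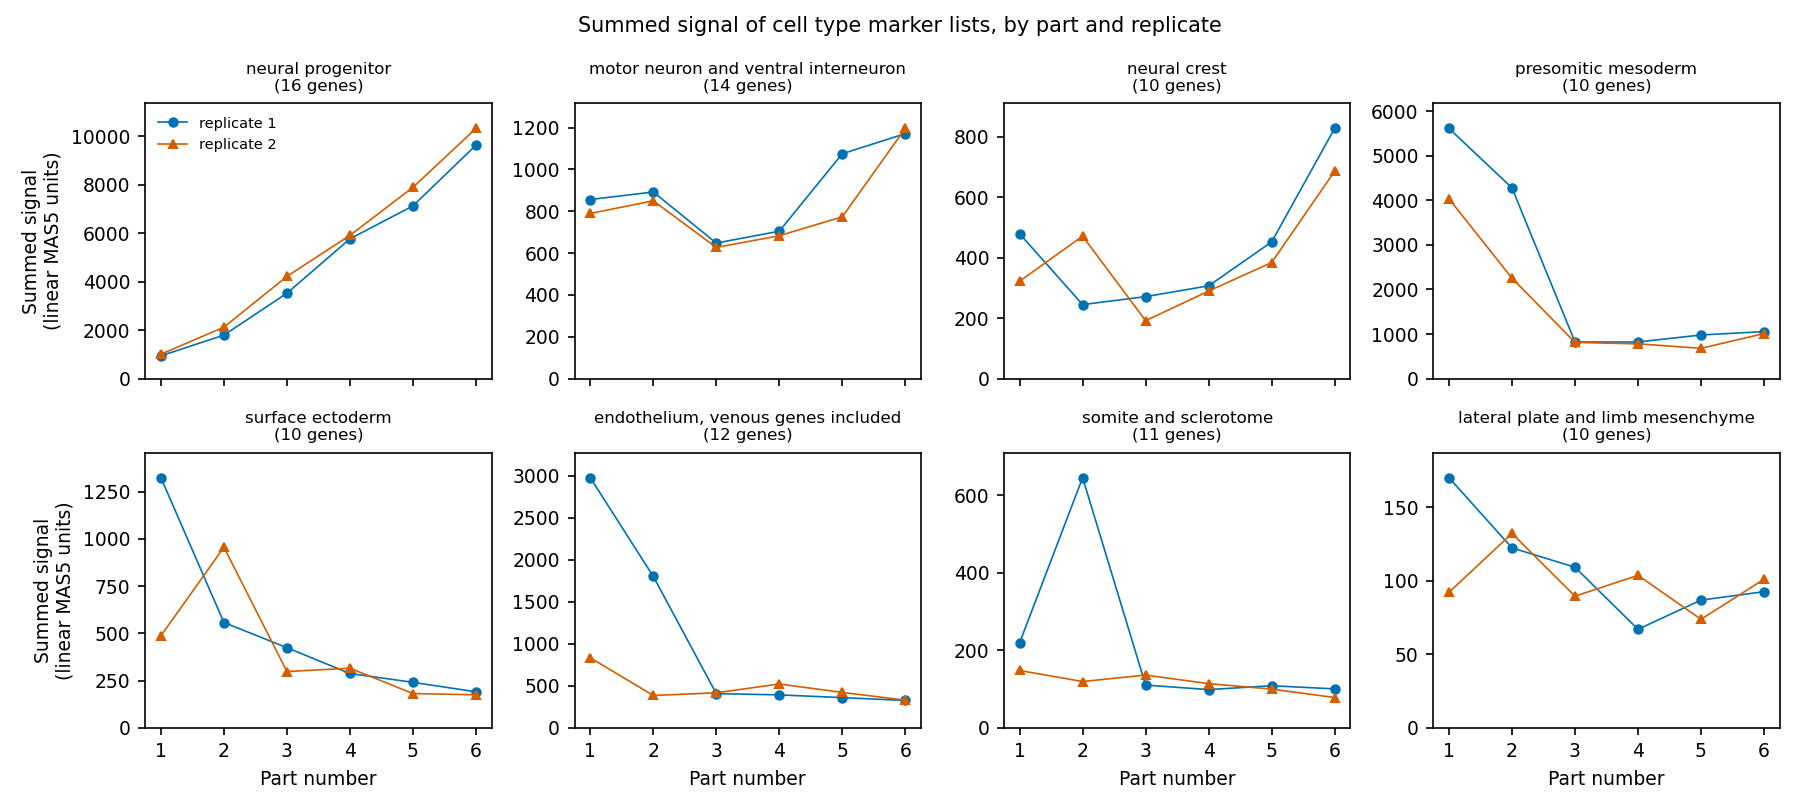
Summed MAS5 signal (linear axis from 0, its own range in each panel) of 8 marker lists against part number, 1 panel per list, with circles for replicate 1 and triangles for replicate 2. Neural progenitor genes reach 9633 to 10326 in part 6 against 938 to 1005 in part 1, endothelial genes are lowest in part 6 (325.7 to 329.7), and somite genes are uneven in part 2 (119.5 to 645.5).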

How the data were processed

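Affymetrix probe set signals from 12 arrays (2 for each of 6 parts) were analysed. The authors deposited linear MAS5 intensity values, per the submitters' processing notes; its version and settings were not found in the labels or headers. Each array's mean after trimming 2% at each end was 100, so the intensities arrived scaled, and no further scaling was applied. Symbols came from the platform annotation: 34945 probe sets have 1 symbol, 932 have several and 9160 have none, besides 64 controls, and 34741 of the first matched RefSeq by Entrez ID.

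Values were log2(signal + 4.43), where 4.43 is 0.25 times the overall median signal (17.7). Kept were 21679 single-symbol probe sets (12089 genes) above the array median on at least 2 arrays. limma 3.58.1 in R 4.3.3 fitted slopes over parts, the overall F test, neighbouring parts, part 6 against part 1, and the replicates. Adjustment was by Benjamini-Hochberg over all kept probe sets at 0.05. Scripts were tested on simulated data. Named genes were all members, called genes of the pathway lists, and the 5 most correlated genes for each called member. A listed gene is represented by its brightest kept probe set. Members and lists were chosen with earlier results of these data known.

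The labels number replicates 1 and 2 in each part. Deviations of same-numbered arrays correlated at 0.203 to 0.423 in all 15 pairs of parts, above 0.1, so the numbers were taken as pairing arrays, and the study's description names 2 embryos. Alternatives varied the block, offset, filter, scaling, summary level and arrays left out. Depth has no meaning for arrays, and 2 per part limit precision.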

Additional observations from a re-analysis of the deposited data

How the results depend on the processing

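The slope call held for both rising Nr6a1 probe sets in each setting that tested them. Of 8 member probe sets called by the slope, leaving out 1 array gave 6 to 9, leaving out both part 1 arrays gave 6, and leaving out both part 6 arrays gave 3. A fit with 1 probe set per gene gave 3 calls by slope, by the F test and by part 6 against part 1, since it tests 4 member features. Filtering at the 75th percentile gave 5 by F and 5 by part 6 against part 1. It left the called Nr2f2 probe sets 1436475_at, 1416158_at and 1416160_at untested, and no probe set still tested lost its call. For neighbouring steps, 1 member call became 2 with the offset equal to the median or the 75th percentile filter, and 0 to 2 without 1 array. The replicate difference gave 1 member call instead of 0 with the 75th percentile filter (Nr2f2 1444229_at, limma adjusted p = 0.0273). Over all probe sets, the slope called 1936, and 1084 without both part 1 arrays, 1154 without both part 6 arrays and 446 with parts 3 to 6 only, a setting chosen after seeing the data; without 1 array the F test called 399 to 607 (698 with all) and part 6 against part 1 536 to 1359 (1369 with all). Neighbouring steps called 47, and 90 with the block, 83 with the offset equal to the median, 14 with no filter, 103 with the 75th percentile filter and 13 to 55 without 1 array. The replicate difference called 806, and 1324 with that offset, 353 with no filter and 197 by gene. The causes were not tested. With the replicate as a block 8 slopes were called, and the block changed no member call.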

Other observations

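The 8 genes nearest to each receptor in RefSeq were looked at, a set chosen after the members' values were seen. Only 10 of their probe sets could be tested, 8 around Nr2f6, 2 around Nr2f1 and 0 around Nr2f2 or Nr6a1, and 0 of the 10 were called by the limma slope, where 8.93% of all probe sets were. Around Nr2f6, 7 of the 8 neighbours had a probe set and 8 probe sets were tested, among them those of Use1, Babam1, Myo9b, Ankle1 and Abhd8. Near Nr2f1, the non-coding gene Gm38604 read 26.0 and 29.4 in part 6, against 13.8 and 13.7 in part 1, with a slope of 0.20 ± 0.062 (SE; limma adjusted p = 0.0706), and Fam172a had a slope of 0.042 (limma adjusted p = 0.357). The non-coding genes A830082K12Rik, which overlaps Nr2f1, and B130024G19Rik, which overlaps Nr2f2, had 4 and 1 probe sets, all too dim to be tested. Nr5a1, the steroidogenic receptor gene beside Nr6a1, had 2 probe sets, also too dim, at 3.87 and 2.40 in part 6 and 8.92 and 4.90 in part 1 for the brighter of them.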
